A study of Homo sapiens with 148 samples.

Results

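The granins and the prohormone-processing enzymes were followed from H9 cells, an established human embryonic stem cell (hESC) line, through their differentiation into organoids of the pancreatic islet. The set comprised 10 genes picked by name: the granins CHGA, CHGB, SCG2, SCG3, SCG5 and VGF, the enzymes PCSK1, PCSK2 and CPE, and the inhibitor PCSK1N. Each had 1 entry in the table of mean expression, which lists 49085 gene names, so all 10 were found and none was removed by a filter. Of the 148 samples that the labels list, 12 were RNA-seq samples, 2 for each of 6 stages. These were undifferentiated hESCs, definitive endoderm (DE, day 4), primitive gut tube (PGT, day 7), pancreatic progenitors (PP, day 14), a stage labelled PH that neither the labels nor the methods define, and SC-β, the β-cell organoids made from the stem cells (day 35). All were wild type (WT) and derived from the H9 line, and all stages after hESCs had received the pancreatic differentiation treatment. The deposited values are mean TPM, a unit in which reads are divided by transcript length and scaled to a fixed total per sample. Each stage therefore has 1 value per gene, without a standard deviation, a test or a known read depth, and every difference between stages is a description of those means. Because the total is fixed, all values depend on the most abundant RNAs. Without mitochondrial genes and the 100 most abundant names, between 36.6% of the total, in PH, and 51.4%, in DE, was left.

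Peptide hormones are made as larger precursors and are packed with granins into dense-core secretory granules, the storage compartment of endocrine cells and of many neurons. Granins are acidic proteins that condense the granule content, and several of them are themselves cut into bioactive peptides. Inside the granule the convertases encoded by PCSK1 and PCSK2 cut precursors after pairs of basic residues, and carboxypeptidase E, encoded by CPE, trims the basic residues that remain. In the β-cell this series of cuts turns proinsulin into insulin, and in the α-cell PCSK2 releases glucagon from its precursor. PCSK2 needs the chaperone encoded by SCG5 to mature, and the PCSK1N product, proSAAS, inhibits PCSK1.

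The regions just upstream of a transcription start in 4 of these genes are shown as examples. They carry the cAMP response element (CRE), the sequence TGACGTCA bound by CREB-family factors, or its core TGACG. Each line is the 250 bases before a transcription start in RefSeq on GRCh38.p14, printed 5′ to 3′ on the strand of the gene, with CREs and cores read on that strand in capitals.
CHGA, chr14:92922900-92923149, forward strand: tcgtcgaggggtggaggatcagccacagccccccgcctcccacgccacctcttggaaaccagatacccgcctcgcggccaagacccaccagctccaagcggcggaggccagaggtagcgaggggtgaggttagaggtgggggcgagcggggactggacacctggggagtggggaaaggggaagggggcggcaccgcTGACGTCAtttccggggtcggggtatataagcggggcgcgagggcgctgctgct
VGF, chr7:101165570-101165819, reverse strand: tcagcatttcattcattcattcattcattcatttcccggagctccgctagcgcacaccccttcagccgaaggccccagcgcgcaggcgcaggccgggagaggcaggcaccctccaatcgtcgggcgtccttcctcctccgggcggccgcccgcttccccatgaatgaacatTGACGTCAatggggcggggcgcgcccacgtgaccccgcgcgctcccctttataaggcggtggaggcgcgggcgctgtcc
PCSK1, chr5:96433249-96433498, reverse strand: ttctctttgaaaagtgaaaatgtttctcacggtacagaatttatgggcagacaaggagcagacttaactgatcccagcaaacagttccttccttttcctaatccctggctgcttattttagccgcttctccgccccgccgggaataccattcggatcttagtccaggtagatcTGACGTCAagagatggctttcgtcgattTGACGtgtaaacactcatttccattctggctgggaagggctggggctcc
CPE, chr4:165378758-165379007, forward strand: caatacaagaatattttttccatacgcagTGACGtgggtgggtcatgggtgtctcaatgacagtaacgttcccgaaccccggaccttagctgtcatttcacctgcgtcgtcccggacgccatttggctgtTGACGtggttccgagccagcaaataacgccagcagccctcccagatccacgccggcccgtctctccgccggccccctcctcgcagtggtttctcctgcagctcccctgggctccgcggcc

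The promoter table held 8 of the 10 genes, with 10 starts among them, and CHGB and SCG2 were not in it. The CRE ended 47 bases before the start of CHGA, 72 before that of VGF and 70 before the upstream start of PCSK1. It was in 3 of the 10 member windows and in 1.65% of the 35116 windows of the same length for all genes. The core TGACG, which lies within every CRE and was searched on both strands, was in 7 of the 10 member windows and in 21.2% of all windows. CPE had the core without a CRE, ending 217 and 116 bases before its start. So had SCG5, ending 13 bases before its start, and PCSK2, ending 153 and 92 bases before its 2 starts, on the opposite strand. The printed windows of CPE and PCSK1 lie inside the GENCODE spans given for these genes below. The GC box GGGCGG was in 7 of the 10 windows and in 42.6% of all, and the TATA box TATAAA was in 2 of the 10, those of a downstream start of PCSK1 and of VGF, the latter on the opposite strand, and in 10.7% of all. These motifs, and the RE1 core that follows, were also searched on both strands. The core of the RE1 element, with up to 2 mismatches, which the repressor REST binds in many neuronal and endocrine genes, was in none of the 10 windows and in 1.53% of all. At so small a share, absence from 10 windows says little, and bases after the start were not searched. The genes that share the CRE did not share a stage pattern. CHGA and PCSK1 were highest in SC-β, and VGF was highest in hESCs.

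**Figure D1:**
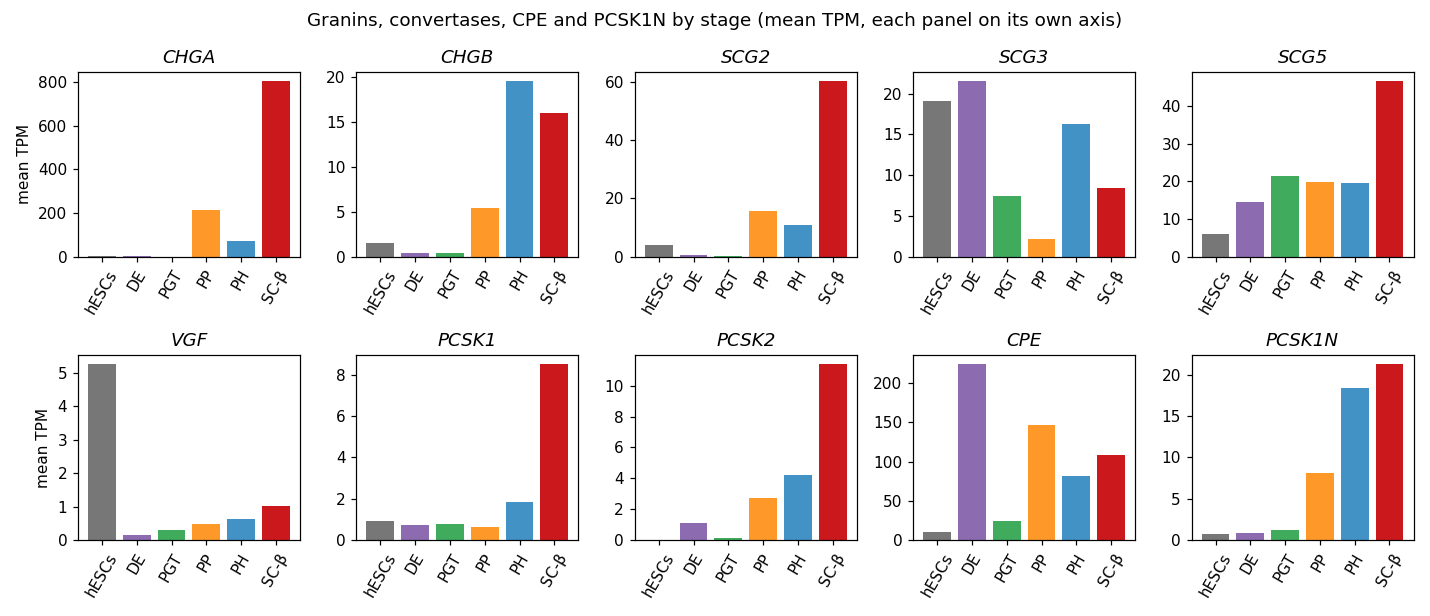
Mean TPM of the 10 genes at the 6 stages. Each bar is the authors' mean over 2 replicates, with no error available, and each panel has its own linear axis from 0. CHGA reached 805 TPM in SC-β, whereas VGF stayed at or below 5.27 TPM at every stage, and CPE and SCG3 were highest in DE.

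Chromogranin A, a widely used blood marker of neuroendocrine cells, is encoded by CHGA (ENSG00000100604.13, chr14:92923150-92935285, forward strand). Its mean level was 3.70 TPM in hESCs, then 5.51 in DE, 0.438 in PGT, 215 in PP, 70.0 in PH and 805 in SC-β. CHGA was thus low through PGT, high from PP on and highest in SC-β, 3.74 times its level in PP. It was the name of rank 83 among the 49085 names in SC-β and of rank 289 in PP, against rank 24789 in PGT. The highest of its levels was 1840 times the lowest, the widest span among the 10 genes. These are organoids measured in bulk, so that a larger number of endocrine cells and more RNA per cell cannot be told apart here or for any gene below.

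Secretogranin II, the precursor of the peptide secretoneurin, is encoded by SCG2 (ENSG00000171951.5, chr2:223596940-223602361, reverse strand). It was at 4.04 TPM in hESCs, then 0.740 in DE, 0.189 in PGT, 15.7 in PP, 10.9 in PH and 60.4 in SC-β. Its order of stages was that of CHGA except that hESCs stood above DE, and SC-β was 3.86 times PP. CHGA and SCG2 were the most alike pair among the 10 genes. When the level of each gene was expressed as shares of its sum over the stages, 10.0 percentage points would have to be moved between stages to turn one pattern into the other.

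Chromogranin B, encoded by CHGB (ENSG00000089199.10, chr20:5911510-5925353, forward strand), is a close functional partner of chromogranin A in granule formation. CHGB was at 1.53 TPM in hESCs, then 0.428 in DE, 0.440 in PGT, 5.46 in PP, 19.6 in PH and 16.0 in SC-β. It was the only one of the 10 genes that was highest in PH, although PH exceeded SC-β by 1.22 times only. The ratio of CHGA to CHGB within a stage, which does not depend on how stages are scaled to each other, was 39.4 in PP, 3.58 in PH and 50.4 in SC-β. The pair of chromogranins thus had a different balance in PH than in the stages before and after it in the table.

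Secretogranin III, encoded by SCG3 (ENSG00000104112.9, chr15:51681492-51721026, forward strand), binds the cholesterol-rich granule membrane and holds other granins to it. SCG3 was at 19.0 TPM in hESCs, then 21.6 in DE, 7.39 in PGT, 2.15 in PP, 16.2 in PH and 8.45 in SC-β. Its lowest stage, PP, was the stage at which CHGA and SCG2 first stood above 10 TPM. DE exceeded hESCs by 1.13 times only, and all values of SCG3 lay within a span of 10.03-fold.

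The chaperone gene SCG5 (ENSG00000166922.9, chr15:32641676-32697098, forward strand) varied over the narrowest range of the members. It was at 6.05 TPM in hESCs, then 14.4 in DE, 21.6 in PGT, 19.9 in PP, 19.7 in PH and 46.8 in SC-β. The levels in PGT, PP and PH were nearly equal, SC-β was 2.17 times PGT, and the span from lowest to highest was 7.73-fold, the smallest of the 10. In the annotation, SCG5 shares its span with the readthrough gene ARHGAP11A-SCG5 on the same strand and with the antisense gene SCG5-AS1. Neither has a row of its own in the table, so how reads were divided among them is not known.

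VGF (ENSG00000128564.8, chr7:101162509-101165569, reverse strand) encodes a granin-like precursor of several neuropeptides that was named for its induction by nerve growth factor. It was at 5.27 TPM in hESCs, then 0.156 in DE, 0.287 in PGT, 0.481 in PP, 0.617 in PH and 1.02 in SC-β. Of the 10 genes it was the only one highest in hESCs, where it stood 5.18 times above SC-β, the next stage. Its mean was higher at each successive stage from DE to SC-β, but it ended at rank 24462 of 49085 names, above 50.2% of them, while CHGA stood above 99.8%.

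The summed level of the 6 granins was 39.6 TPM in hESCs, then 42.9 in DE, 30.3 in PGT, 259 in PP, 137 in PH and 938 in SC-β. The sum was 8.54 times higher in PP than in PGT and 3.62 times higher in SC-β than in PP. Most of the first step was CHGA, since the sum of the other 5 was 1.46 times higher in PP than in PGT. CHGA also held most of the TPM added in the second step, and the sum without CHGA was 3.04 times higher in SC-β, at 132.6 TPM against 43.6 in PP. In PH the sum of all 6 was 1.89 times lower than in PP, whereas the sum without CHGA was 1.54 times higher, at 67.0 TPM.

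The make-up of this granin RNA changed from stage to stage. SCG3 was the main granin in hESCs and DE, with 48.0% and 50.4% of the sum. SCG5 was the main one in PGT, with 71.1%. CHGA held 9.34% in hESCs, 12.9% in DE and 1.44% in PGT, but 83.1% in PP, 51.1% in PH and 85.9% in SC-β. In PH the part not held by CHGA was spread over CHGB with 14.3%, SCG5 with 14.3% and SCG3 with 11.8%.

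**Figure D2:**
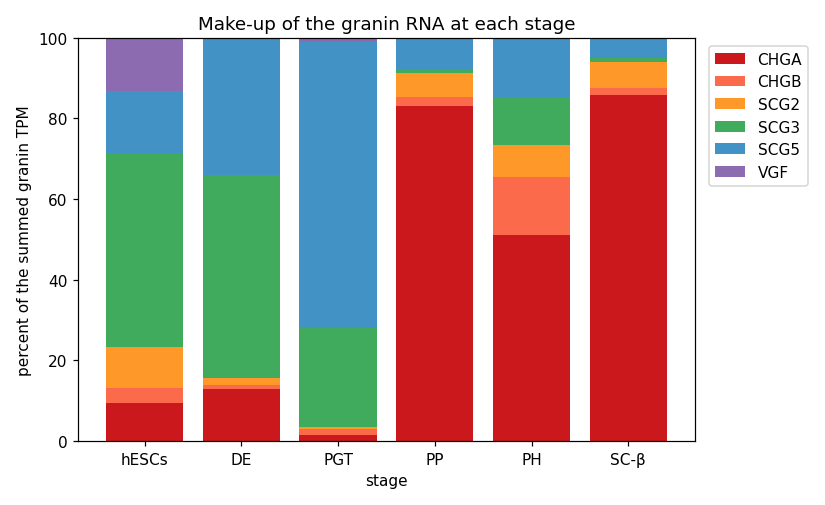
Share of each granin in the summed granin TPM of a stage, in percent. Each stacked bar adds to the whole of the 6 granins at 1 stage, from the authors' means. SCG3 leads in hESCs and DE, SCG5 in PGT with 71.1%, and CHGA from PP on, with 83.1% in PP, 51.1% in PH and 85.9% in SC-β.

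Among the enzymes, PCSK1 (ENSG00000175426.11, chr5:96390333-96434143, reverse strand) encodes the convertase that makes the opening cuts in proinsulin. It was at 0.913 TPM in hESCs, then 0.750 in DE, 0.761 in PGT, 0.610 in PP, 1.85 in PH and 8.52 in SC-β. PCSK1 was below 1 TPM through PP and differed little among these 4 stages. SC-β was 4.61 times PH, the largest gap between the highest stage and the next among the genes that peaked in SC-β.

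PCSK2 (ENSG00000125851.10, chr20:17226107-17484578, forward strand) encodes the convertase that is abundant in α-cells and also acts on proinsulin. It was at 0.0323 TPM in hESCs, then 1.11 in DE, 0.138 in PGT, 2.71 in PP, 4.23 in PH and 11.4 in SC-β. PCSK2 exceeded PCSK1 in DE and in every stage from PP on, and PCSK1 exceeded PCSK2 in hESCs and PGT. PCSK2 was already above 1 TPM in PP, where PCSK1 had its lowest value, so the 2 convertases did not appear together in the table.

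CPE (ENSG00000109472.14, chr4:165361194-165498547, forward strand) was the most abundant enzyme at every stage. It was at 9.79 TPM in hESCs, then 224 in DE, 24.0 in PGT, 146.6 in PP, 81.0 in PH and 108 in SC-β. CPE was highest in DE, at rank 371 of all names, a stage at which no other member exceeded 21.6 TPM. It dropped in PGT and was high again from PP on, so that its levels in PP, PH and SC-β lay within 2-fold of each other. It made up between 84.4% of the summed enzyme RNA, in SC-β, and 99.2%, in DE. The enzyme sum was accordingly 10.7 TPM in hESCs, then 226 in DE, 24.9 in PGT, 149.9 in PP, 87.1 in PH and 128 in SC-β. The annotated span of CPE holds the microRNA gene MIR578 on the same strand and the pseudogene HADHAP1 on the other, and HADHAP1 was at or below 5.16 TPM at all stages.

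The inhibitor gene PCSK1N (ENSG00000102109.9, chrX:48831096-48835610, reverse strand) was at 0.678 TPM in hESCs, then 0.833 in DE, 1.21 in PGT, 8.13 in PP, 18.4 in PH and 21.3 in SC-β. Its mean was higher at each successive stage of the table. PH and SC-β were close, with SC-β 1.16 times higher. Its pattern was most like that of CHGB, at a distance of 10.8 percentage points, against 34.1 for PCSK1, the convertase it inhibits.

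Ratios between members within a stage place the enzymes beside their partners. PCSK2 over PCSK1 was 0.0354 in hESCs, then 1.48 in DE, 0.181 in PGT, 4.44 in PP, 2.29 in PH and 1.34 in SC-β. The balance thus leaned most to PCSK2 in PP and approached equal levels in SC-β. The inhibitor PCSK1N stood at 0.743 times PCSK1 in hESCs, then 1.11 in DE, 1.59 in PGT, 13.3 in PP, 9.96 in PH and 2.50 in SC-β. Inhibitor RNA therefore exceeded that of its target most in PP and PH.

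The chaperone SCG5 stood at 187 times PCSK2 in hESCs, then 12.97 in DE, 156 in PGT, 7.35 in PP, 4.64 in PH and 4.10 in SC-β. SCG5 RNA was thus in excess of PCSK2 RNA at every stage, with the smallest excess in SC-β. CPE over the sum of the 2 convertases was 10.4 in hESCs, then 120 in DE, 26.8 in PGT, 44.2 in PP, 13.3 in PH and 5.43 in SC-β. Of the 6 stages, SC-β had the smallest surplus of carboxypeptidase over convertase RNA and DE had the largest. The ratios with PCSK2 in hESCs and PGT rest on values below 0.2 TPM, whose read support is not known.

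**Figure D3:**
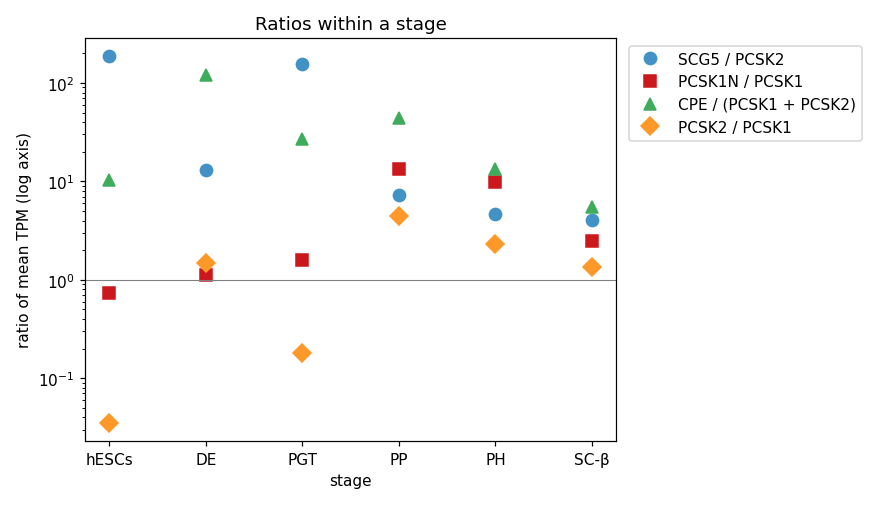
Ratios of mean TPM between members within each stage, on a log axis, with a line at equal levels. Points are quotients of the authors' means and carry no error. SCG5 / PCSK2 drops from 187 in hESCs to 4.10 in SC-β, and PCSK2 / PCSK1 lies above the line in DE, PP, PH and SC-β.

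At 1 TPM or more, 7 of the 10 genes were present in hESCs, then 5 in DE, 4 in PGT, 8 in PP, 9 in PH and all 10 in SC-β. At 10 TPM or more, the counts were 1, 3, 2, 4, 7 and 7 in the same order. The median member stood at 3.87 TPM in hESCs, then 0.973 in DE, 0.6001 in PGT, 6.80 in PP, 17.3 in PH and 18.6 in SC-β. PGT was lowest by the median and by the count at 1 TPM, hESCs were lowest by the count at 10 TPM, and the medians of PH and SC-β were close although their CHGA levels were far apart.

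Steps between stages were then counted as log2 ratios of TPM + 1, and a gene was called from 2-fold. Most of the 49085 names are near 0, so the share called among all names is followed by the share among names at 1 TPM or more in either stage. From hESCs to DE, 3 of the 10 genes were called higher, against 12.9% of all names and 28.2% of the expressed ones. These were CPE with a log2 ratio of 4.38, SCG5 with 1.13 and PCSK2 with 1.03. A further 2 were called lower, VGF at -2.44 and SCG2 at -1.53, against 2.55% of all names and 5.55% of the expressed ones. When each stage was rescaled by the median ratio of the commonly expressed genes, with factors from -0.27 in hESCs and 0.21 in DE to 0.25 in SC-β on the log2 scale, SCG5 was at 0.70 and PCSK2 at 0.92, below 2-fold. CPE was then the 1 gene called higher, and CHGB moved from -0.83 to -1.06 and was called lower beside VGF and SCG2.

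From DE to PGT, none of the 10 was called higher, against 2.3% of all names and 4.94% of the expressed ones. CPE at -3.17, CHGA at -2.18 and SCG3 at -1.43 were called lower, 3 of 10 against 4.92% of all names and 10.6% of the expressed ones. The carboxypeptidase gene thus returned to 24.0 TPM, the level nearest to its 9.79 TPM in hESCs, and the other 7 genes were within 2-fold on the scale of TPM + 1. Of these 7, PCSK2 and SCG2 passed 2-fold with a pseudocount of 0.1 TPM, at -2.35 and -1.54.

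From PGT to PP, 6 of the 10 genes were called higher, against 2.74% of all names and 6.3% of the expressed ones. CHGA had a log2 ratio of 7.23, SCG2 of 3.81, CPE of 2.56, CHGB of 2.17, PCSK1N of 2.05 and PCSK2 of 1.70. The called genes included granins, enzymes and the inhibitor, but neither PCSK1, at -0.13, nor the chaperone gene SCG5, at -0.11. SCG3 was the 1 gene called lower, at -1.41, against 3.25% of all names and 7.46% of the expressed ones. The median log2 ratio of the 10 was 1.88, and that of all names was 0.

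From PP to PH, 3 of the 10 were called higher, SCG3 at 2.45, CHGB at 1.67 and PCSK1N at 1.09, against 5.14% of all names and 11.5% of the expressed ones. CHGA was called lower, at -1.61, the 1 gene of 10 against 5.73% of all names and 12.8% of the expressed ones. The ratios of the other 6 lay between -0.85 for CPE and 0.82 for PCSK1. Neuron markers moved in the same step. Of 11 (TUBB3, STMN2, ELAVL3, ELAVL4, DCX, MAP2, NEFL, NEFM, GAP43, INA and L1CAM), 10 were called higher and none lower, and their summed level was 187 TPM in PP, 1594 in PH and 316 in SC-β. The 7 mesenchyme markers summed to 53.6 TPM in PP, 520 in PH and 1224 in SC-β. The part of other cell types in the levels of CHGB, SCG3 and PCSK1N in PH was not tested.

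From PP to SC-β, 8 of the 10 genes were called higher, against 10.6% of all names and 20.7% of the expressed ones. PCSK1 led with a log2 ratio of 2.56, followed by CHGA with 1.90, SCG2 with 1.88, PCSK2 with 1.74, SCG3 with 1.58, CHGB with 1.39, PCSK1N with 1.29 and SCG5 with 1.19. SCG5 was at 0.93 after median-ratio rescaling, below 2-fold. None was called lower, against 0.939% of all names and 1.84% of the expressed ones, and the other 2 genes were VGF at 0.45 and CPE at -0.43. Both convertases were thus called and the carboxypeptidase was not.

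SC-β and PH, each with 7 of the 10 members at 10 TPM or more, were also compared with each other. Here 5 of the 10 were called higher in SC-β, against 14.7% of all names and 28.1% of the expressed ones. They were CHGA at 3.50, SCG2 at 2.36, PCSK1 at 1.74, PCSK2 at 1.25 and SCG5 at 1.21, and none was called lower, against 2.41% of all names and 4.6% of the expressed ones. After median-ratio rescaling PCSK2 was at 0.81 and SCG5 at 0.73, below 2-fold, while SCG3 moved from -0.87 to -1.32 and was called lower. CHGA, SCG2 and PCSK1 were called higher under both scalings. CHGB, at -0.28, and PCSK1N, at 0.20, were within 2-fold.

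Across the whole course, from hESCs to SC-β, 8 of the 10 genes were called higher, against 22.2% of all names and 42.4% of the expressed ones. CHGA had a log2 ratio of 7.42, PCSK1N of 3.73, SCG2 of 3.61, PCSK2 of 3.59, CPE of 3.34, SCG5 of 2.76, CHGB of 2.74 and PCSK1 of 2.31. VGF at -1.64 and SCG3 at -1.08 were called lower, 2 of 10 against 3.7% of all names and 7.08% of the expressed ones. The median log2 ratio of the 10 was 3.05 and that of all names 0.23. The 2 genes lower in the organoids than in the stem cells were both granins, and all 3 enzymes were higher. These comparisons share stages with each other, SC-β above all, so they are not independent.

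**Figure D4:**
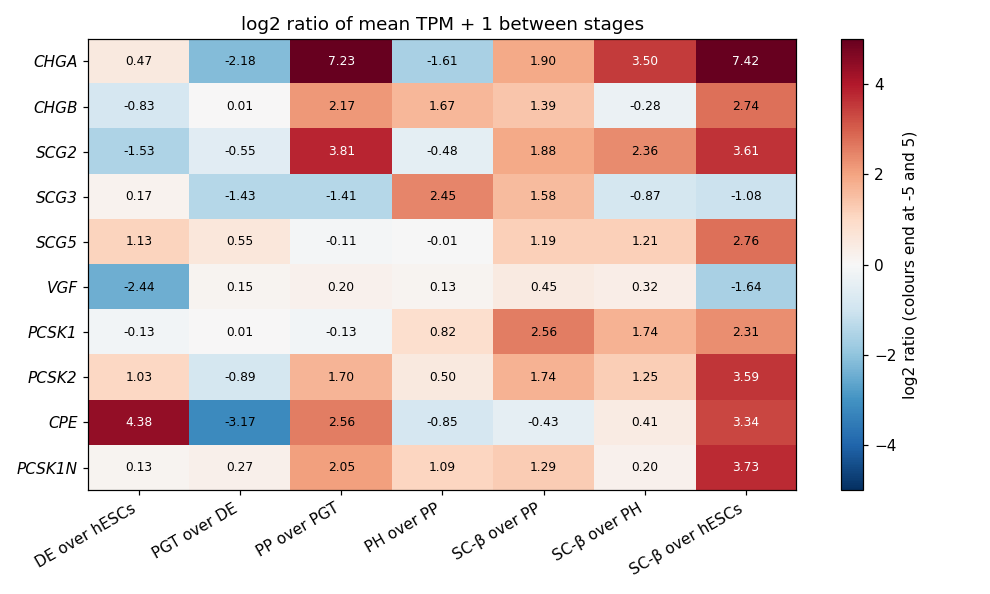
Log2 ratio of mean TPM + 1 for the 10 genes (rows) in 7 comparisons of stages (columns). Red is higher and blue is lower in the stage named before "over", and the printed number is the ratio. The column PP over PGT holds the 7.23 of CHGA, and CPE reads 4.38, -3.17 and 2.56 over the first 3 steps.

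The endocrine label of the organoids was checked against the hormones themselves. INS, GCG and SST together summed to 71.5 TPM in PP, 99.9 in PH and 3294 in SC-β, of which GCG, the glucagon precursor, was 2793 in SC-β and INS was 298. The β-cell maturity factor MAFA did not exceed 1.25 TPM at any stage. The SC-β label, which the submitters describe as differentiated β-cells, thus covers bulk organoids in which the α-cell hormone was the more abundant RNA. Hormone RNA does not measure the share of each cell type. The paper measured C-peptide-positive, glucagon-negative cells in these organoids by flow cytometry, which is not compared here. The granin sum was 3.62 times the sum of the 3 hormones in PP, 1.37 times in PH and 0.285 times in SC-β. Granin RNA thus exceeded the RNA of these 3 hormones in PP and PH and was below it in SC-β. In PH this depended on the choice of hormones, since the 18 peptide precursors of the pathway list summed to 283 TPM there, against a granin sum of 137. The 6 markers of enterochromaffin cells, the serotonin-making gut endocrine cells that also store CHGA, summed to 7.46 TPM in PP, 4.70 in PH and 69.4 in SC-β. Of these 6, 4 were at 1 TPM or more in SC-β. The 5 sympathoadrenal markers summed to 14.2 TPM in PP, 8.07 in PH and 28.1 in SC-β. The part of these cell types in the SC-β levels of CHGA and PCSK1 was not tested.

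Other genes of the pathway were described from lists written with the gene set. Their counts are read beside the shares called higher among expressed names, 42.4% from hESCs to SC-β and 20.7% from PP to SC-β, and among all names, 22.2% and 10.6%. The shares called lower were 7.08% and 1.84% among expressed names, and 3.7% and 0.939% among all names. Of 6 other proprotein convertases, which act mostly in the constitutive secretory route, 2 were called higher and none lower from hESCs to SC-β, and none in either direction from PP to SC-β. FURIN, the ubiquitous Golgi convertase, was at 18.9 TPM in hESCs and 15.5 in SC-β. From PP to SC-β the calls among the convertases described here fell on PCSK1 and PCSK2, the pair of the regulated route. With 6 others and a share of 20.7% among expressed names, the lack of further calls says little. In SC-β these 6 summed to 133.9 TPM, against 8.52 for PCSK1 and 11.4 for PCSK2. The 7 other carboxypeptidases of the CPE family gave 3 higher and 1 lower from hESCs to SC-β, and 2 higher and none lower from PP to SC-β. The counts called higher were near the shares among the expressed names, and the 1 of 7 called lower stood against 7.08% of them. CPD, the family member of the Golgi, was at 28.6 TPM in hESCs and 61.7 in DE, then at 44.5 in PGT, 50.5 in PP, 22.5 in PH and 47.8 in SC-β. CPD was also highest in DE, but its levels spanned a far narrower range than those of CPE.

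Of the 4 enzymes that finish peptide ends, PAM, which amidates them, was called higher from hESCs to SC-β and QPCT lower. That was 1 of 4 in each direction, against 42.4% higher and 7.08% lower among expressed names. PAM was at 28.2 TPM in hESCs, 18.7 in PGT, 82.3 in PP, 62.3 in PH and 78.3 in SC-β. Like CPE, it reached its late level in PP and changed by less than 2-fold afterwards. The 20 genes for granule membrane proteins and release gave 11 higher and none lower from hESCs to SC-β, and 6 higher and none lower from PP to SC-β. The shares called higher were not far above those among the expressed names. Between PH and SC-β, 6 of the 20 were higher in SC-β, against 14.7% of all names and 28.1% of the expressed ones. A further 7 were lower in SC-β, against 2.41% and 4.6%. Their median log2 ratio was -0.43, against 0.20 for all names. SNAP25, a membrane-fusion protein of neurons and endocrine cells, was at 3.97 TPM in PP, 32.8 in PH and 13.2 in SC-β, and the granule membrane protein gene PTPRN2 was at 4.04, 23.3 and 7.86. Both were highest in PH, as CHGB was. The 18 peptide precursors gave 8 higher from PGT to PP, against 2.74% of all names and 6.3% of the expressed ones. They gave 2 lower in that step, against 3.25% and 7.46%. From PP to SC-β, 11 were higher and 1 lower, the latter against 0.939% and 1.84%. PENK, the enkephalin precursor, was at 10.8 TPM in PP, 139 in PH and 99.9 in SC-β.

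**Figure D5:**
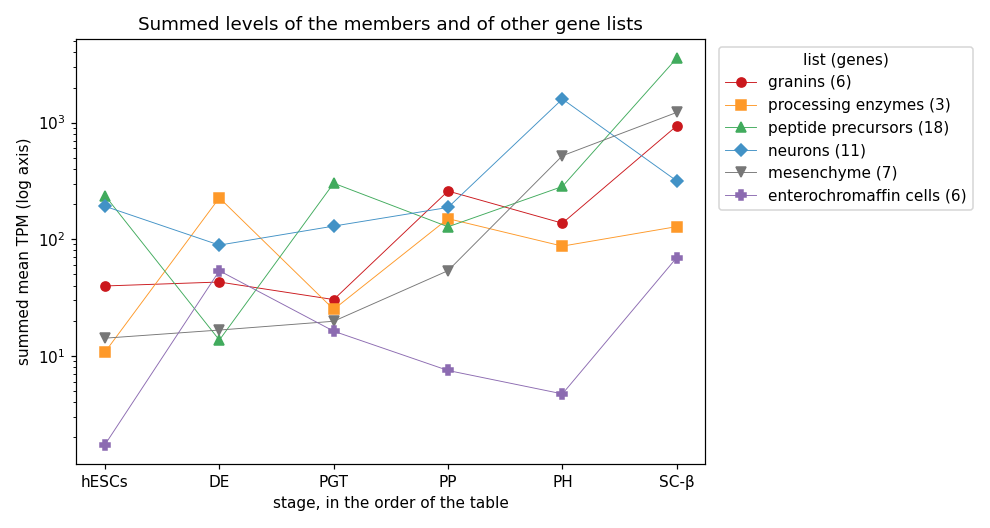
Summed mean TPM of the granins, the processing enzymes and 4 other gene lists at each stage, on a log axis, with the number of genes in brackets. Lines only join the points of 1 list. Granins reach 938 TPM and peptide precursors 3574 TPM in SC-β, while neuron markers peak at 1594 TPM in PH.

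Among the 12205 names that reached 10 TPM at some stage, the nearest in stage pattern were found by the same distance between shares. For CHGA they were FIGF at 2.59 percentage points, CDH17 at 4.70 and ILDR2 at 4.98. The nearest to CHGB were RMST_10 at 3.27, COL12A1 at 5.12 and TSHZ1 at 5.34. The nearest to SCG2 were EHF at 5.98, SGMS2 at 6.46 and GLI3 at 6.75, and none of these 9 genes is in the pathway lists used here.

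SCG5 was nearest to MIR186 at 2.67 and PPP1R12B at 3.202, and PCSK1N to BCL2 at 3.83, SULF1 at 3.92 and RIMBP2 at 4.22. PCSK1 was nearest to NID2 at 5.96, LSAMP-AS1 at 6.95 and BNC2 at 7.40, and PCSK2 to USH1C at 5.31, EEF1A1P29 at 6.25 and RERG at 6.29. VGF was nearest to VAT1L at 6.94, FABP3 at 7.03 and STAC at 7.13. The genes with peaks in DE had the most distant neighbours. The nearest to SCG3 were HSPB1 at 8.10, CCDC64 at 8.81 and RTN3 at 10.2, and the nearest to CPE were EYA2 at 9.16, FRZB at 10.6 and ITGA9 at 11.9. With 6 values per gene such likeness is easily met, and nothing about function follows from it.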

How the data were processed

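RNA-seq was the assay used, from 12 samples of H9 cells and their derivatives. Total RNA was extracted with Trizol. The labels name both RiboMinus depletion and a TruSeq Stranded mRNA kit, and which of them set the RNA content is not settled here. Reads were aligned by HISAT2 (2.2.0) against hg38, and the authors deposited the mean TPM of each stage that StringTie (2.1.6) gave per gene. The annotation behind the table is not given in the sources used here. The 50451 entries carry 49085 names, of which 231 repeat, and repeated names were summed. Single replicates and counts were not used here, so the depth is unknown and no error, interval or test is given.

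Log2 ratios used a pseudocount of 1 TPM, which understates changes of low genes, and calls began at 2-fold. All 10 members are described. Genes of other lists could be named at 10 TPM or more in PH or SC-β, and exceptions were chosen after their values were seen. Hormone sums, MAFA, NPY and HADHAP1 are such exceptions. The 3 nearest names to each member were taken, clone names aside. Some genes of the lists and neighbours are not reported here, and the list counts were computed without them. The members and lists were chosen with earlier results of these data known. Positions are from GENCODE on GRCh38, and upstream windows are from RefSeq, without bases after the start. Alternatives were a pseudocount of 0.1 TPM, median-ratio rescaling over 13938 names, totals without mitochondrial genes and the 100 most abundant names, a 4-fold threshold, a filter at 1 TPM and the highest entry of repeated names. The counts of lower members were added to these alternatives after the data were seen. Scripts were tested on simulated data. Python 3.11.15, numpy 2.4.6, pandas 2.3.3 and matplotlib 3.10.9 were used.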

Additional observations from a re-analysis of the deposited data

How the results depend on the processing

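No paired analysis was possible because the table holds 1 mean per stage and no single replicates, and no replicate could be left out for the same reason. Of 280 alternative log2 ratios of members, 262 kept their side of 2-fold, 10 passed it, 8 no longer did, and 0 called ratios changed sign. The 70 ratios under the highest entry of repeated names were fixed in advance, since each member has 1 entry. Of 84 alternative counts of called members, 70 stayed within 1.5 times the main count. The 14 counts under that setting and the 14 under the filter at 1 TPM could not change either. A 2-fold call on TPM + 1 already needs 1 TPM in the higher stage, so these settings say nothing about stability. Under median-ratio rescaling, 1 gene instead of 3 was higher in DE than in hESCs, 3 instead of 5 were higher in SC-β than in PH, and 1 instead of 0 was lower there. Without mitochondrial genes and the 100 most abundant names, the last 2 counts were again 3 and 1. With a pseudocount of 0.1 TPM, 5 instead of 3 genes were lower in PGT than in DE. At 4-fold, 1 gene was higher and 1 lower in DE than in hESCs, 0 were lower in PP than in PGT, 1 was higher and 0 lower in PH than in PP, 1 instead of 8 was higher in SC-β than in PP, 2 were higher in SC-β than in PH, and 0 were lower in SC-β than in hESCs. With totals recomputed without the most abundant names, the granin sums were 86.7, 83.3, 65.3, 615, 375 and 1873 TPM and the enzyme sums 23.5, 440.0, 53.8, 357, 238 and 256 TPM in the order hESCs, DE, PGT, PP, PH and SC-β. All 12 sums were higher because a smaller total is shared, by the construction of that setting. Uncalled ratios near 0 that changed sign were those of SCG3 and PCSK1N from hESCs to DE (-0.29 and -0.08 after median-ratio rescaling), SCG5 from PGT to PP (0.02) and PP to PH (0.20), and CPE and PCSK1N from PH to SC-β (-0.08 and -0.27). The unknown depth limits values below 1 TPM most, among them VGF in all stages between DE and PH and PCSK1 through PP.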

Other observations

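Of 9 regulators listed with the pathway, 6 were called higher and none lower from hESCs to SC-β, and the same counts from PP to SC-β. Among expressed names, 42.4% and 20.7% were called higher in these comparisons, and among all names 22.2% and 10.6%. Called lower were 7.08% and 1.84% of the expressed names, and 3.7% and 0.939% of all names. REST, a repressor of neuronal and endocrine genes, was at 20.9 TPM in hESCs, then 34.3 in DE, 29.8 in PGT, 11.8 in PP, 12.8 in PH and 35.7 in SC-β. REST was thus lowest in PP and PH, while DE and SC-β were nearly equal and highest. CHGA was at 5.51 TPM in DE and 805 in SC-β, and a link between the levels of REST and CHGA was not tested. INSM1, a zinc-finger factor of endocrine and neural progenitors, was at 2.31 TPM in PP, 26.5 in PH and 8 in SC-β. INSM1 was thus highest in PH, whereas NEUROD1, an islet endocrine factor, was at 4.16 TPM in PP, 3.71 in PH and 21.0 in SC-β. CREB1, which binds the CRE, was at 24.3 TPM or more at every stage and reached 50.9 TPM in SC-β.

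The 18 peptide precursors summed to 237 TPM in hESCs, then 13.6 in DE, 302 in PGT, 128 in PP, 283 in PH and 3574 in SC-β. In PGT, where the granin sum had its lowest value, NPY alone was at 290.0 TPM, a gene chosen after its value was seen. In DE, where CPE had its highest level of 224 TPM, 9 of the 18 precursors were listed at 0. The stages beside it were similar in this, with 6 of the 18 at 0 in hESCs and 8 in PGT. The 4 Schwann cell markers summed to 95.7 TPM in PP, 11.8 in PH and 25.5 in SC-β. The 4 pluripotency markers summed to 2351 TPM in hESCs and 78.8 in SC-β, where 2 of the 4 were at 1 TPM or more. The 10 beta and alpha cell markers summed to 22.9 TPM in hESCs, 951 in PGT and 4402 in SC-β. Of the sum in SC-β, GCG held 2793 TPM. In PGT INS and GCG were at 0, so the sum of this list does not follow these hormones alone.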
